A study of Mus musculus with 6 samples.

Results

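The astrocytes of the mouse hippocampus were examined in 6 single-cell RNA libraries. A barcode, the droplet tag that stands for a captured cell, was kept when it held 300 or more genes, 500 or more UMIs (counted RNA molecules) and no more than 15% mitochondrial UMIs. It was called an astrocyte when 7 genes (Slc1a3, Aqp4, Gja1, Gjb6, Fgfr3, Aldh1l1 and Ntsr2) gave at least 3 UMIs from at least 2 of them, and more UMIs than the neuronal genes Rbfox3, Syt1 and Snap25 together. Of 50141 kept barcodes, 1098 met the rule (2.19%), out of 50224 deposited. The members were thus chosen by UMIs of these 10 genes. A wild-type library held 712 of them, or 64.8%.

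Astrocytes take up glutamate and potassium released at synapses, contact blood vessels with end-feet rich in the water channel aquaporin 4, and are coupled to each other by gap junctions of connexins. They also make most of the brain's apolipoprotein E, the carrier that moves cholesterol to neurons. Around amyloid plaques they are known to become reactive, with more of the intermediate filament protein GFAP.

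The 3 groups had 2 samples each, all from hippocampus of mice aged 6 months. The treated group, 5xFAD_Ab3FTnAu, were 5×FAD mice given Aβ3FTnAu, which by the series title is a protein and gold nanostructure that recognises and cleaves human amyloid-β plaques. The 5xFAD_PBS group were 5×FAD mice given PBS, the buffer alone, and the WT_PBS group were their wild-type littermates, also given PBS. 5×FAD mice carry human transgenes with familial Alzheimer's disease mutations, expressed in neurons from a Thy1 promoter, so astrocytes meet the amyloid made by neurons. Whether a group's 2 samples are separate animals is not stated in the labels, so p-values measure the spread between samples, which may be technical. WT_PBS mice carried no transgene, and no group of wild-type mice received Aβ3FTnAu.

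Astrocyte barcodes were few in 5 of the 6 libraries. They numbered 73 and 40 for 5xFAD_Ab3FTnAu, 87 and 78 for 5xFAD_PBS, and 712 and 108 for WT_PBS. As shares of kept barcodes these were 0.892% (exact 95% interval 0.700 to 1.12) and 0.607% (0.434 to 0.825) for 5xFAD_Ab3FTnAu, 1.68% (1.35 to 2.07) and 0.865% (0.684 to 1.08) for 5xFAD_PBS, and 4.75% (4.42 to 5.10) and 1.75% (1.43 to 2.10) for WT_PBS. The group means were 0.749% ± 0.202 for 5xFAD_Ab3FTnAu, 1.27% ± 0.579 for 5xFAD_PBS and 3.25% ± 2.13 for WT_PBS, each over n = 2 samples with the SD. Both WT_PBS shares were above both 5×FAD shares of either treatment, but the 2 WT_PBS shares lay further apart from each other than the second of them lay from any 5×FAD share. With 2 samples against 2, an exact two-sided permutation test cannot go below p = 0.333, so no test was made. The intervals cover counting error only, and the same rule that reads astrocyte UMIs chose these barcodes.

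**Figure D1:**
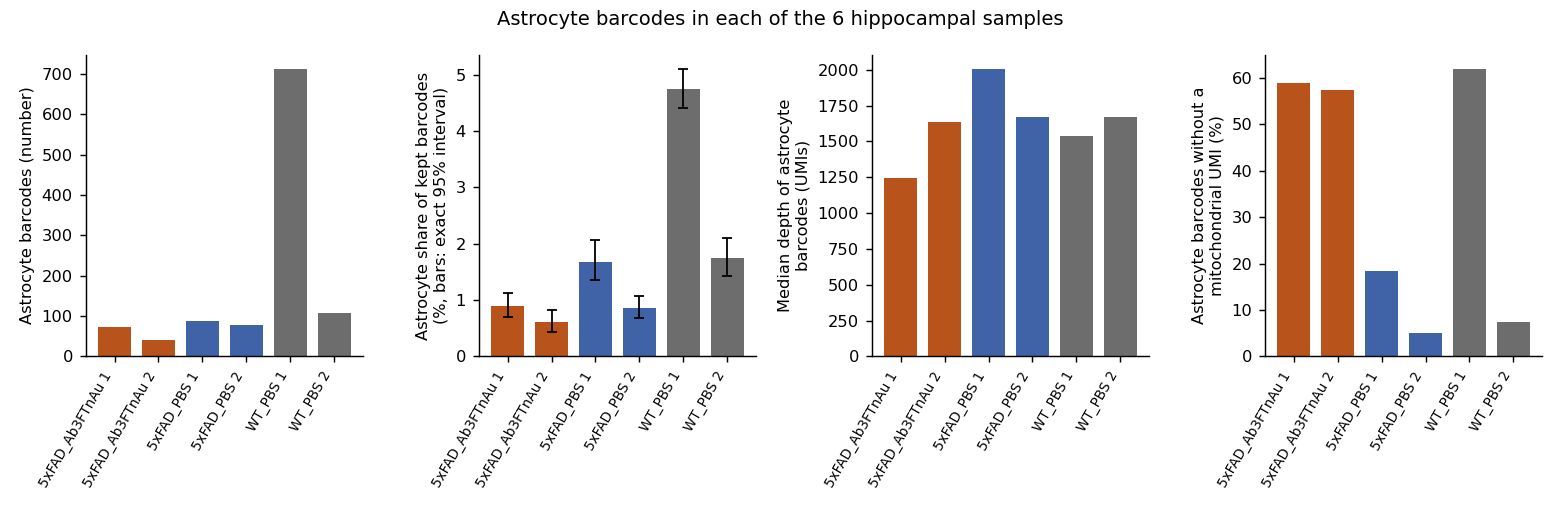
Astrocyte barcodes in the 6 samples: their number, their share of kept barcodes (%, bars are exact 95% intervals), their median depth (UMIs) and the share without any mitochondrial UMI (%). The first WT_PBS sample holds 712 of 1098 barcodes, and the share without a mitochondrial UMI is above 57% in that sample and in both 5xFAD_Ab3FTnAu samples.

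Astrocyte barcodes were shallow. Their median depth was 1244 and 1634 UMIs for 5xFAD_Ab3FTnAu, 2005 and 1673 for 5xFAD_PBS, and 1540.5 and 1672.5 for WT_PBS, whereas all kept barcodes had medians of 3745 to 4936 UMIs. Summed over the astrocyte barcodes of a sample, there were 108115 and 67882 UMIs for 5xFAD_Ab3FTnAu, 198777 and 147947 for 5xFAD_PBS, and 1181479 and 207470 for WT_PBS. The 5xFAD_Ab3FTnAu sums were therefore the least precise and those of the first WT_PBS sample the most. A chi-square test of gene counts between a group's 2 samples, divided by its degrees of freedom, gave 1.65 in 5xFAD_Ab3FTnAu, 2.38 in 5xFAD_PBS and 4.74 in WT_PBS. Since such ratios grow with depth, the 3 values cannot be ranked. Barcode sequences shared by a pair of libraries numbered 9 to 45 among kept barcodes, and none was an astrocyte in both.

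A library feature moved with the groups. The share of astrocyte barcodes without any mitochondrial UMI was 58.9% and 57.5% for 5xFAD_Ab3FTnAu, 18.4% and 5.13% for 5xFAD_PBS, and 61.9% and 7.41% for WT_PBS. Over all kept barcodes the shares were 66.6% and 65.8% for 5xFAD_Ab3FTnAu, 22.8% and 17.9% for 5xFAD_PBS, and 57.4% and 30.1% for WT_PBS. Mitochondrial transcripts gave 0.0740% and 0.0766% of astrocyte UMIs for 5xFAD_Ab3FTnAu, 0.957% and 1.90% for 5xFAD_PBS, and 0.0568% and 0.843% for WT_PBS. The 2 WT_PBS samples thus stood apart from each other, the first like 5xFAD_Ab3FTnAu and the second like 5xFAD_PBS. Values within barcodes that have no mitochondrial UMI are given beside Apoe, C730002L08Rik, Fth1 and Gfap. Counts of called genes in these barcodes are given with the alternatives. Beyond these, the part of this library feature in the results was not tested.

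The barcodes sat close to the edge of the rule in the treated samples. Their median count over the 7 rule genes was 5 UMIs in both 5xFAD_Ab3FTnAu samples, 7 in both 5xFAD_PBS samples, and 7 and 6 in WT_PBS. Just inside the rule, 20 and 6 of the 5xFAD_Ab3FTnAu barcodes, 8 and 9 of the 5xFAD_PBS ones and 52 and 11 of the WT_PBS ones held exactly 3 such UMIs. Just outside it, barcodes with 2 such UMIs numbered 7 and 10 for 5xFAD_Ab3FTnAu, 15 and 11 for 5xFAD_PBS, and 45 and 14 for WT_PBS. A stricter rule of at least 6 UMIs from at least 3 rule genes was met by 19.2% and 25.0% of 5xFAD_Ab3FTnAu members, 55.2% and 57.7% of 5xFAD_PBS members, and 62.1% and 57.4% of WT_PBS members.

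Among the rule genes, Slc1a3, the glutamate transporter GLAST, was in 94.9% to 98.9% of the astrocyte barcodes of a sample. Its summed level was 2201 and 1768 CPM in 5xFAD_Ab3FTnAu, 2203 and 2399.5 CPM in 5xFAD_PBS, and 2770.3 and 2299 CPM in WT_PBS, where CPM is a gene's UMI count scaled to the same total of astrocyte UMIs in every sample. Gja1, which encodes connexin 43 of the astrocyte gap junctions, stood at 231 and 265 CPM in 5xFAD_Ab3FTnAu, 458 and 534 CPM in 5xFAD_PBS, and 873 and 496 CPM in WT_PBS, lower in 5xFAD_Ab3FTnAu than in every PBS sample. Gjb6, the partner connexin 30, did not follow it, at 176 and 147 CPM in 5xFAD_Ab3FTnAu, 121 and 87.9 CPM in 5xFAD_PBS, and 130.3 and 149 CPM in WT_PBS. Aqp4, the water channel of end-feet, ranged widely between the 2 5xFAD_Ab3FTnAu samples, at 157 and 471 CPM in 5xFAD_Ab3FTnAu, 418 and 453 CPM in 5xFAD_PBS, and 335 and 269.9 CPM in WT_PBS.

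The receptor gene Fgfr3 had 342 and 221 CPM in 5xFAD_Ab3FTnAu, 307 and 297 CPM in 5xFAD_PBS, and 262 and 328 CPM in WT_PBS. Aldh1l1, the folate enzyme used as a pan-astrocyte marker, had 102 and 88.4 CPM in 5xFAD_Ab3FTnAu, 101 and 74.4 CPM in 5xFAD_PBS, and 66.9 and 96.4 CPM in WT_PBS. Ntsr2, a neurotensin receptor gene, had 407 and 383 CPM in 5xFAD_Ab3FTnAu, 221 and 324 CPM in 5xFAD_PBS, and 566 and 323 CPM in WT_PBS. Since these 7 genes chose the barcodes, their levels describe them and were not tested.

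The label was checked on genes that the rule did not use. Slc1a2, the main glutamate transporter GLT-1, reached 6160.1 and 5937 CPM in 5xFAD_Ab3FTnAu, 4885 and 6496 CPM in 5xFAD_PBS, and 4868 and 6849 CPM in WT_PBS in astrocyte barcodes. In the same libraries it was at 36.8 to 78.8 CPM in oligodendrocyte barcodes, 57.5 to 130.2 CPM in microglia barcodes and 145 to 158 CPM in neuron barcodes, classes called by matching marker rules (5241, 2107 and 37905 barcodes). After thinning each barcode to 1000 UMIs, the share of astrocyte barcodes with a Slc1a2 UMI was 88.9% and 88.2% for 5xFAD_Ab3FTnAu, 87.8% and 93.2% for 5xFAD_PBS, and 96.5% and 95.1% for WT_PBS. The share of neuron barcodes was 11.8% to 14.2%, so the gene set the classes apart in every sample. Without thinning, the astrocyte shares were 88.9% and 91.2% for 5xFAD_Ab3FTnAu, 90.2% and 97.3% for 5xFAD_PBS, and 98.1% and 96.1% for WT_PBS. Thinning left out astrocyte barcodes under 1000 UMIs, which numbered 10 and 6 for 5xFAD_Ab3FTnAu, 5 and 5 for 5xFAD_PBS, and 77 and 5 for WT_PBS.

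Markers of other cells were present, with those of neurons far below their level over all kept barcodes. The 16 neuron markers summed to 1221 and 1267 CPM in 5xFAD_Ab3FTnAu, 1328 and 1257 CPM in 5xFAD_PBS, and 1590.4 and 1229 CPM in WT_PBS, whereas all kept barcodes had 17141 to 20494 CPM. Of these markers 12 and 12, 15 and 14, and 16 and 13 were detected in 5xFAD_Ab3FTnAu, 5xFAD_PBS and WT_PBS, and Gad2, of inhibitory neurons, was at 0 in 4 samples. Microglia markers differed more between samples.

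The 14 microglia markers summed to 490.2 and 1075 CPM in 5xFAD_Ab3FTnAu, 629 and 750.3 CPM in 5xFAD_PBS, and 363 and 463 CPM in WT_PBS. Between 9 and 13 of them were detected in a sample, with Aif1 at 0 in 5 samples and Tmem119 at 0 in 3. The 12 oligodendrocyte markers summed to 860.2 and 427 CPM in 5xFAD_Ab3FTnAu, 1228 and 750.3 CPM in 5xFAD_PBS, and 758 and 1374 CPM in WT_PBS, all detected except 5, Mog among them, in the second 5xFAD_Ab3FTnAu sample. Microglia markers were thus lowest in the 2 WT_PBS samples, while oligodendrocyte markers overlapped between the groups. Over all kept barcodes, microglia markers had 375 and 395 CPM in 5xFAD_Ab3FTnAu, 572 and 689 CPM in 5xFAD_PBS, and 326 and 342 CPM in WT_PBS. In every sample this was below their level in astrocyte barcodes. Oligodendrocyte markers had 595 to 1033 CPM over all kept barcodes. This was above their astrocyte level in the second sample of each 5×FAD group and below it elsewhere.

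The 9 oligodendrocyte precursor markers summed to 814 and 854 CPM in 5xFAD_Ab3FTnAu, 332 and 1352 CPM in 5xFAD_PBS, and 377 and 443 CPM in WT_PBS, with 6 to 9 detected. Vascular markers (12 genes, 2 to 10 detected) gave 135 to 294 CPM, neural stem cell markers (11) 487 to 699 CPM, fibroblast markers (7) 0 to 201 CPM, ependymal markers (9) 9.25 to 189 CPM and choroid plexus markers (5) 0 to 27.7 CPM. Barcodes that also met a rule for microglia, oligodendrocytes, precursors or vascular cells had shares of 20.5% and 27.5% for 5xFAD_Ab3FTnAu, 24.1% and 20.5% for 5xFAD_PBS, and 10.5% and 20.4% for WT_PBS. The first WT_PBS sample thus had the smallest share of such mixtures. Over all kept barcodes, precursor markers had 293 to 367 CPM and vascular markers 57.7 to 67.6 CPM. In every sample both were below their level in astrocyte barcodes.

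Astrocyte gene expression was compared on UMIs summed per sample, with 4155 genes passing the filter on low counts. In 5xFAD_Ab3FTnAu against 5xFAD_PBS, the question was what the nanostructure changed in the amyloid model. A single gene passed, Apoe, which encodes the lipid carrier apolipoprotein E and fell (0.0241% of tested genes were called at adjusted p under 0.05, by edgeR's quasi-likelihood test with Benjamini-Hochberg adjustment). In 5xFAD_Ab3FTnAu against WT_PBS, 2 genes passed (0.0481% of tested genes), Apoe, which fell, and the noncoding RNA C730002L08Rik, which rose. In 5xFAD_PBS against WT_PBS, which asks what the transgenes changed, no gene passed (0% of tested genes). At an unadjusted p under 0.05 there were 274, 534 and 331 genes in these 3 comparisons, 6.59%, 12.9% and 7.97% of those tested. DESeq2 called 3, 16 and 0 genes (0.0722%, 0.385% and 0%). Leaving out a library gave 0 to 24, 0 to 178 and 0 to 105 calls, with the most without WT_PBS replicate 1 in the first comparison and without WT_PBS replicate 2 in the others. The comparisons share samples, so their values stand side by side below and are not independent.

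Apoe (chr7:19696109-19699188 on the minus strand, GRCm38) stood at 989.7 and 1016 CPM in 5xFAD_Ab3FTnAu, 4362 and 8625 CPM in 5xFAD_PBS, and 7932 and 4497 CPM in WT_PBS. Both 5xFAD_Ab3FTnAu samples lay below all 4 PBS samples, as 17.7% and 19.9% of tested genes did against 5xFAD_PBS and WT_PBS, and the PBS samples of the 2 genotypes overlapped. The log2 fold change was -2.77 ± 0.34 against 5xFAD_PBS (adjusted p = 0.0115) and -2.70 ± 0.34 against WT_PBS (adjusted p = 0.0132). For 5xFAD_PBS against WT_PBS it was 0.06 ± 0.31 (adjusted p = 0.992). The levels rest on 107 and 69 UMIs in 5xFAD_Ab3FTnAu, 867 and 1276 UMIs in 5xFAD_PBS, and 9371 and 933 UMIs in WT_PBS.

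**Figure D2:**
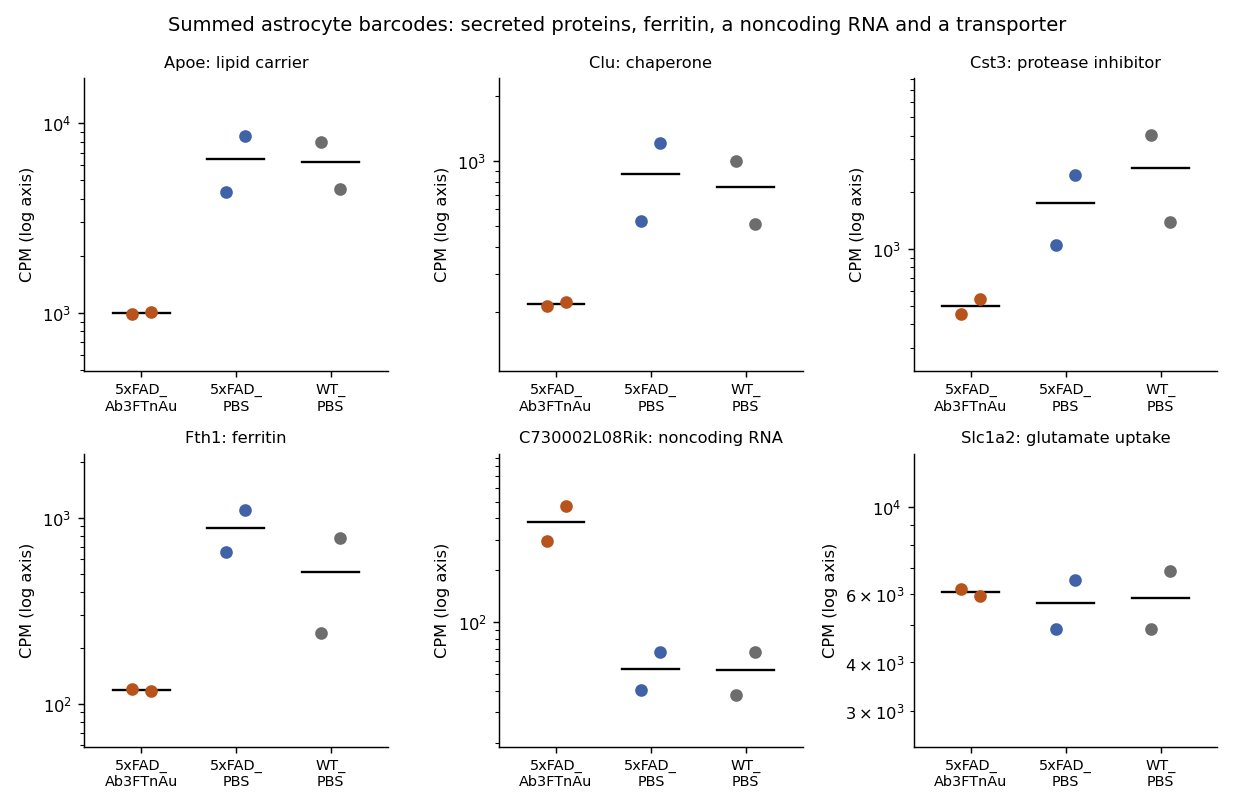
Summed astrocyte level (CPM, log axis) of 6 genes in each sample, with the mean of the 2 samples as a line. Both 5xFAD_Ab3FTnAu samples lie below the other 4 for Apoe, Clu, Cst3 and Fth1 and above them for C730002L08Rik, while the groups overlap for Slc1a2; only Apoe and C730002L08Rik passed a test.

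The share of astrocyte barcodes with any Apoe molecule was smaller in the treated samples. At a common depth of 1000 UMIs, Apoe was found in 57.1% (exact 95% interval 44.0 to 69.5) and 52.9% (35.1 to 70.2) of the 5xFAD_Ab3FTnAu astrocyte barcodes, 89.0% (80.2 to 94.9) and 98.6% (92.6 to 100) of the 5xFAD_PBS ones, and 98.3% (96.9 to 99.1) and 87.4% (79.4 to 93.1) of the WT_PBS ones. In neuron barcodes, which should make little of it, the shares were 4.30% and 4.40% for 5xFAD_Ab3FTnAu, 10.7% and 13.1% for 5xFAD_PBS, and 8.20% and 10.0% for WT_PBS. Without thinning the astrocyte shares were 69.8% and 70.6% for 5xFAD_Ab3FTnAu, 97.6% and 100% for 5xFAD_PBS, and 99.8% and 93.2% for WT_PBS. The astrocyte share was far above the neuron share in every sample, and both were lowest in 5xFAD_Ab3FTnAu.

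Apoe was also lowest in 5xFAD_Ab3FTnAu in oligodendrocyte and neuron barcodes of the same libraries. In oligodendrocyte barcodes its level was 444 and 333 CPM in 5xFAD_Ab3FTnAu, 1042 and 1421 CPM in 5xFAD_PBS, and 1305 and 777 CPM in WT_PBS, and it fell in 5xFAD_Ab3FTnAu against 5xFAD_PBS (log2 -1.71 ± 0.23, adjusted p = 0.0305, with 0.0583% of 10286 genes called). In microglia barcodes the level was 1182 and 857 CPM in 5xFAD_Ab3FTnAu, 4122 and 4033 CPM in 5xFAD_PBS, and 944 and 675 CPM in WT_PBS, so 5xFAD_PBS stood apart from both other groups there. In neuron barcodes it was 48.7 and 53.2 CPM in 5xFAD_Ab3FTnAu, 108 and 138 CPM in 5xFAD_PBS, and 117 and 88.6 CPM in WT_PBS. The astrocyte difference exceeded the oligodendrocyte one by a log2 of -1.06 ± 0.35, which did not pass (adjusted p = 0.568 over 12199 genes). Without barcodes that also met another class's rule, Apoe fell against 5xFAD_PBS by nearly as much (log2 -2.67, adjusted p = 0.0143). The part of free RNA in the astrocyte levels was not tested.

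**Figure D3:**
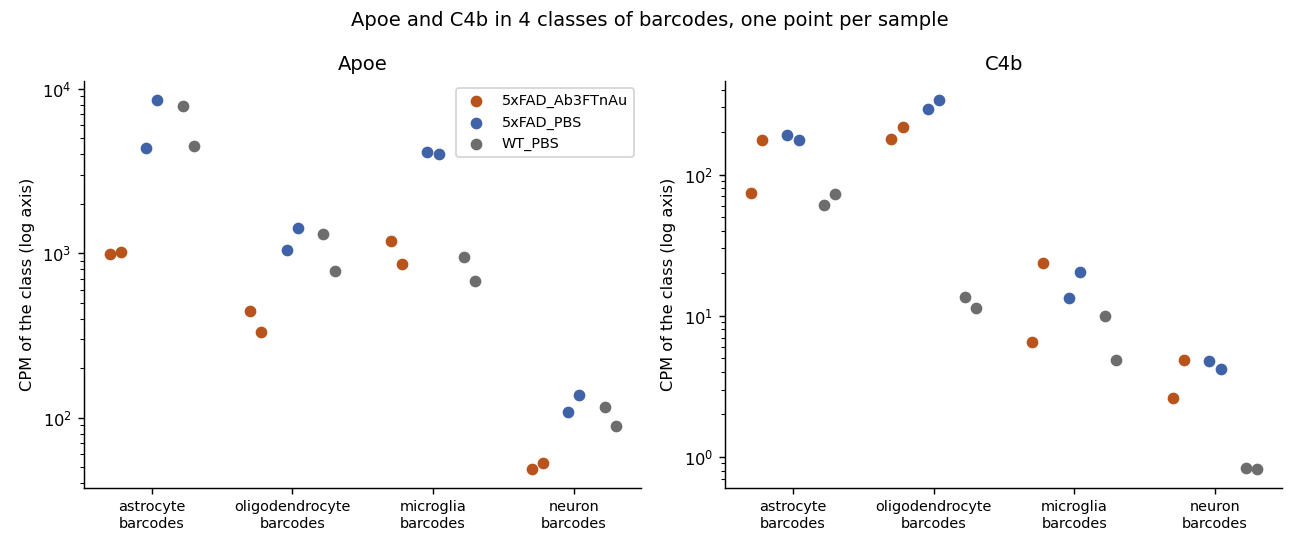
Level of Apoe and C4b (CPM of the class, log axis) in 4 classes of barcodes, with 1 point per sample. Apoe is lowest in 5xFAD_Ab3FTnAu in astrocyte, oligodendrocyte and neuron barcodes, and C4b in oligodendrocyte barcodes is at 292 and 340.1 CPM in 5xFAD_PBS against 13.7 and 11.3 CPM in WT_PBS.

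The Apoe call against 5xFAD_PBS was lost in barcodes without a mitochondrial UMI (log2 -1.99, adjusted p = 0.553), which numbered 43 and 23 for 5xFAD_Ab3FTnAu, 16 and 4 for 5xFAD_PBS, and 441 and 8 for WT_PBS. In these, Apoe stood at 915 and 899 CPM in 5xFAD_Ab3FTnAu, 3129 and 4813 CPM in 5xFAD_PBS, and 7523 and 1704 CPM in WT_PBS. Both treated samples were still the lowest, although the second WT_PBS sample came close. Against WT_PBS the call held in the same barcodes (log2 -2.46, adjusted p = 0.0143). Leaving out 5xFAD_Ab3FTnAu replicate 1 ended the call against 5xFAD_PBS (adjusted p = 0.0890), and leaving out replicate 2 ended that against WT_PBS (adjusted p = 0.0536).

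The promoters of Apoe and of Gfap, the astrocyte filament gene described below, are shown as the best-known secreted and reactive genes of the set. RefSeq (GRCm38.p6) gives 250 bases before and 50 after each start, both on the minus strand. Apoe lies at chr7:19699139-19699438 and Gfap at chr11:102897151-102897450, and capitals mark a STAT-type motif.
Apoe: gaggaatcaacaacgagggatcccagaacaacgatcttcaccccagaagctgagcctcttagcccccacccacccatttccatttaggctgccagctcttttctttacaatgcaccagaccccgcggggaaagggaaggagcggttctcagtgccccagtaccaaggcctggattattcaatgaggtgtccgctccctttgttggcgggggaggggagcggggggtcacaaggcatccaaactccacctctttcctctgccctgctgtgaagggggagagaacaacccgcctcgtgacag
Gfap: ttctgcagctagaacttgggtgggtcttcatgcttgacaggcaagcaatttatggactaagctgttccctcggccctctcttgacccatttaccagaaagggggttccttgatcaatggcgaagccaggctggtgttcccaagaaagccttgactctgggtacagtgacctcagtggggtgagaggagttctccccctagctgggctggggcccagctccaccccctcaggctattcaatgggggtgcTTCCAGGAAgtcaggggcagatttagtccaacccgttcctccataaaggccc
Both strands were searched for 4 motifs. The GC box was searched as CCGCCC, found in 35.7% of 32851 promoters of this length. The TATA box was searched as TATAAA, found in 13.6%. The STAT motif was searched as TTCNNNGAA, found in 8.30%. The antioxidant response element was searched as TGACNNNGC, found in 12.4%, and no searched motif overlapped another in these windows. The Apoe window held none of them, and the Gfap window held 1 STAT match, starting at position -2 from the RefSeq start. That start lies within the GENCODE gene rather than at its outer end. RefSeq promoters matched 92 of 131 named genes.

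C730002L08Rik (chr19:20410544-20552330 on the minus strand) is a noncoding transcript that overlaps 1500015L24Rik and Aldh1a1 on the plus strand, and no source used here says whether counting used strand. It stood at 296 and 471 CPM in 5xFAD_Ab3FTnAu, 40.2 and 67.6 CPM in 5xFAD_PBS, and 38.1 and 67.5 CPM in WT_PBS. Both treated samples were above all 4 PBS samples, as 21.4% and 25.2% of tested genes were against 5xFAD_PBS and WT_PBS, with 32 and 32 UMIs in 5xFAD_Ab3FTnAu, 8 and 10 UMIs in 5xFAD_PBS, and 45 and 14 UMIs in WT_PBS. The rise against WT_PBS passed (log2 2.93 ± 0.39, adjusted p = 0.0132), and the difference against 5xFAD_PBS did not (log2 2.76 ± 0.44, adjusted p = 0.0690), although it did in 5 of 16 alternatives: DESeq2 (adjusted p = 0.00720), no filter on low counts (adjusted p = 1.70e-06), the replicate block (adjusted p = 0.00491), and without WT_PBS replicate 1 (adjusted p = 1.38e-05) or 2 (adjusted p = 0.000330). The call against WT_PBS was lost without 5xFAD_Ab3FTnAu replicate 2 (log2 2.61, adjusted p = 0.0819), under the stricter astrocyte rule (log2 2.90, adjusted p = 0.134), in barcodes without a mitochondrial UMI (log2 2.62, adjusted p = 0.235) and with sums thinned to equal depth (log2 2.63, adjusted p = 0.0804). In the barcodes without a mitochondrial UMI it had 18 and 17 UMIs in 5xFAD_Ab3FTnAu, 3 and 0 UMIs in 5xFAD_PBS, and 26 and 4 UMIs in WT_PBS, or 311 and 463 CPM in 5xFAD_Ab3FTnAu, 95.8 and 0 CPM in 5xFAD_PBS, and 37.2 and 309.8 CPM in WT_PBS.

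Clu, Cst3, Fth1 and Sparcl1 were lower in both treated samples than in the other 4, and none passed in the astrocyte comparisons. Clu, which encodes the extracellular chaperone clusterin, stood at 213 and 221 CPM in 5xFAD_Ab3FTnAu, 528 and 1209.9 CPM in 5xFAD_PBS, and 1004 and 511 CPM in WT_PBS (log2 -2.07 ± 0.45, adjusted p = 0.367 against 5xFAD_PBS). Cst3, encoding the protease inhibitor cystatin C, stood at 453 and 545 CPM in 5xFAD_Ab3FTnAu, 1051 and 2467 CPM in 5xFAD_PBS, and 4017 and 1393 CPM in WT_PBS (log2 -2.52 ± 0.49, adjusted p = 0.0889 against WT_PBS). Clu and Cst3 were also lowest in both treated samples in oligodendrocyte, microglia and neuron barcodes. In oligodendrocyte barcodes Cst3 stood at 214 and 191 CPM in 5xFAD_Ab3FTnAu and 431 and 480 CPM in 5xFAD_PBS. That fall passed (log2 -1.22 ± 0.17, adjusted p = 0.0324, with 0.0583% of 10286 genes called). Fth1, the ferritin heavy chain gene, stood at 120.2 and 118 CPM in 5xFAD_Ab3FTnAu, 654 and 1102 CPM in 5xFAD_PBS, and 241 and 781 CPM in WT_PBS (log2 -2.94 ± 0.56, adjusted p = 0.254 against 5xFAD_PBS). For Fth1, the first WT_PBS sample came closest to the treated ones. In barcodes without a mitochondrial UMI, Fth1 had 11 and 0 UMIs in 5xFAD_Ab3FTnAu, 6 and 0 UMIs in 5xFAD_PBS, and 156 and 5 UMIs in WT_PBS, or 190.0 and 0 CPM in 5xFAD_Ab3FTnAu, 192 and 0 CPM in 5xFAD_PBS, and 223 and 387 CPM in WT_PBS. The 5xFAD_Ab3FTnAu and 5xFAD_PBS samples overlapped in these few barcodes. Sparcl1, a secreted protein that promotes synapse formation, had 777 and 545 CPM in 5xFAD_Ab3FTnAu, 941 and 1142 CPM in 5xFAD_PBS, and 1513 and 906 CPM in WT_PBS (log2 -0.70 ± 0.31, adjusted p = 0.732 against 5xFAD_PBS).

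Of the genes named for the smallest p against WT_PBS, Hes5, Cldn10, Nnat and Nkain4 had the lower levels in the treated samples. Hes5, a target gene of Notch, stood at 37.0 and 44.2 CPM in 5xFAD_Ab3FTnAu, 111 and 108 CPM in 5xFAD_PBS, and 196 and 193 CPM in WT_PBS (log2 -2.34 ± 0.42, adjusted p = 0.0889 against WT_PBS). Cldn10, a claudin gene, stood at 74.0 and 88.4 CPM in 5xFAD_Ab3FTnAu, 131 and 189 CPM in 5xFAD_PBS, and 536 and 255 CPM in WT_PBS (log2 -2.42 ± 0.46, adjusted p = 0.0889). Nnat, the imprinted neuronatin gene, stood at 129 and 88.4 CPM in 5xFAD_Ab3FTnAu, 267 and 385 CPM in 5xFAD_PBS, and 789.7 and 333 CPM in WT_PBS (log2 -2.42 ± 0.47, adjusted p = 0.0889). For these 3, 5xFAD_PBS lay between the other groups in mean level, and none passed. In 5xFAD_Ab3FTnAu, Hes5 rests on 4 and 3 UMIs and Cldn10 on 8 and 6. Nkain4, whose product interacts with the sodium pump, was at 2 and 0 UMIs in 5xFAD_Ab3FTnAu, 19 and 25 UMIs in 5xFAD_PBS, and 267 and 27 UMIs in WT_PBS, which did not pass against WT_PBS.

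A pair of antisense RNAs named by the same rule had the higher levels in the treated samples. Gm34408, antisense to Agmo, stood at 194 and 221 CPM in 5xFAD_Ab3FTnAu, 111 and 67.6 CPM in 5xFAD_PBS, and 27.1 and 48.2 CPM in WT_PBS (log2 2.59 ± 0.41, adjusted p = 0.0518 against WT_PBS). Sorbs2os, antisense to Sorbs2, stood at 139 and 324 CPM in 5xFAD_Ab3FTnAu, 116 and 94.6 CPM in 5xFAD_PBS, and 29.6 and 57.8 CPM in WT_PBS (log2 2.48 ± 0.46, adjusted p = 0.0889). Both were highest in 5xFAD_Ab3FTnAu and lowest in WT_PBS in every sample, with neither passing. Strand use was not stated, and the part of the partner genes' reads in these levels was not tested.

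In 5xFAD_PBS against WT_PBS no gene passed, but Gfap and other genes known from plaque-associated astrocytes had both 5xFAD_PBS samples above both WT_PBS samples, as 18.4% of all tested genes did. Gfap (chr11:102887336-102900912), the intermediate filament gene of reactive astrocytes, stood at 185 and 412 CPM in 5xFAD_Ab3FTnAu, 241 and 426 CPM in 5xFAD_PBS, and 102 and 139.8 CPM in WT_PBS (log2 1.50 ± 0.38, adjusted p = 0.329). Its 5xFAD_Ab3FTnAu samples overlapped 5xFAD_PBS (log2 -0.28 ± 0.41, adjusted p = 0.928) and lay above both WT_PBS samples (log2 1.22 ± 0.42, adjusted p = 0.233). At 1000 UMIs, the share of astrocyte barcodes with a Gfap UMI was 11.1% and 26.5% for 5xFAD_Ab3FTnAu, 15.9% and 26.0% for 5xFAD_PBS, and 9.45% and 16.5% for WT_PBS, and that of neuron barcodes was at most 3 in 1000. In barcodes without a mitochondrial UMI, Gfap had 5 and 7 UMIs in 5xFAD_Ab3FTnAu, 3 and 2 UMIs in 5xFAD_PBS, and 73 and 4 UMIs in WT_PBS, too few to compare.

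**Figure D4:**
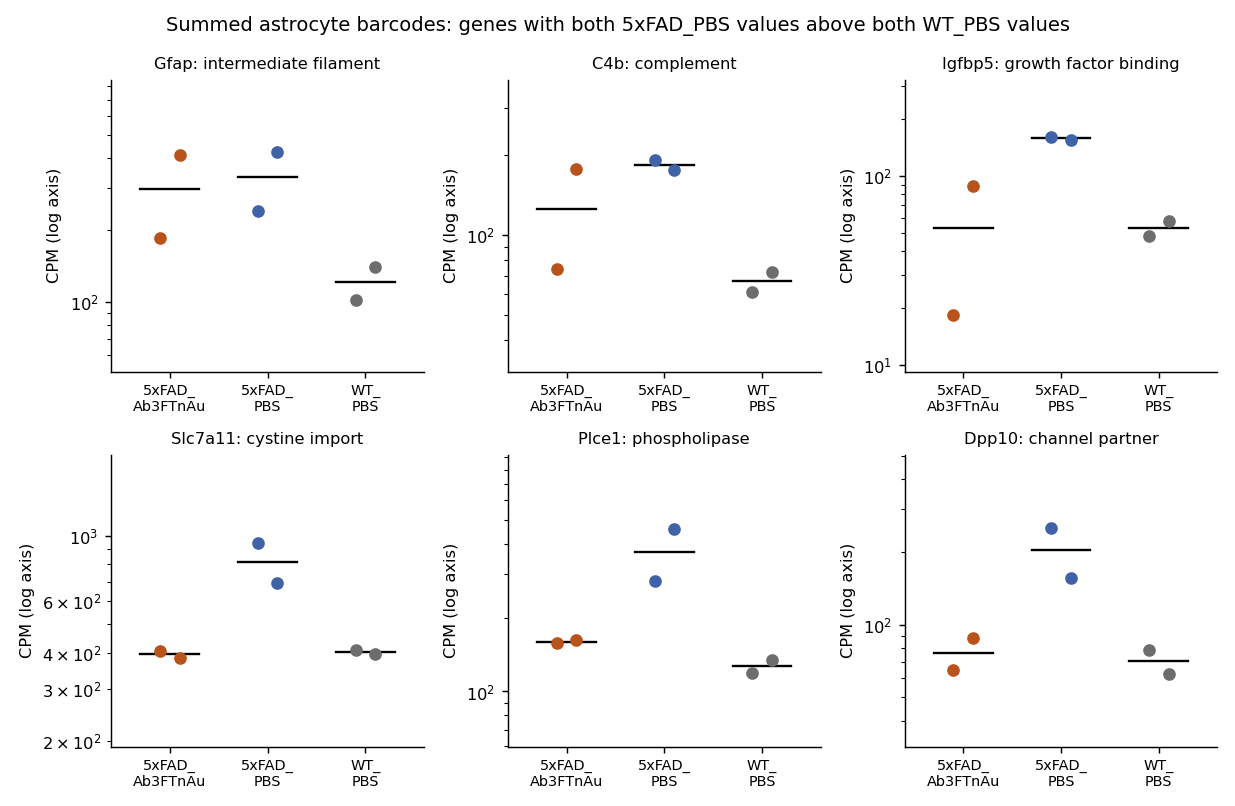
Summed astrocyte level (CPM, log axis) of 6 genes in each sample, with the mean of the 2 samples as a line. Both 5xFAD_PBS samples lie above both WT_PBS samples for each gene, and none of these differences passed the test. For Dpp10 this order was lost under the stricter astrocyte rule.

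C4b, which encodes complement component 4, stood at 74.0 and 177 CPM in 5xFAD_Ab3FTnAu, 191 and 176 CPM in 5xFAD_PBS, and 60.9 and 72.3 CPM in WT_PBS (log2 1.50 ± 0.35, adjusted p = 0.293), and its reads may be shared with the near-identical C4a. The first 5xFAD_Ab3FTnAu sample was at the level of WT_PBS and the second at that of 5xFAD_PBS, on only 8 and 12 UMIs. In oligodendrocyte barcodes the same gene stood at 179.6 and 217 CPM in 5xFAD_Ab3FTnAu, 292 and 340.1 CPM in 5xFAD_PBS, and 13.7 and 11.3 CPM in WT_PBS, and it rose in 5xFAD_PBS against WT_PBS (log2 4.71 ± 0.22, adjusted p = 3.72e-07, with 0.194% of 10286 genes called). The 5xFAD_PBS difference was larger in oligodendrocyte than in astrocyte barcodes (log2 -3.26 ± 0.42, adjusted p = 8.57e-11 for astrocytes minus oligodendrocytes, in a fit of both classes that called 0.0574% of 12199 genes). That fit leans on spread pooled over genes, so its p-values may understate the spread between a gene's own samples.

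Igfbp5, a secreted binding protein of insulin-like growth factors, stood at 18.5 and 88.4 CPM in 5xFAD_Ab3FTnAu, 161 and 155 CPM in 5xFAD_PBS, and 48.2 and 57.8 CPM in WT_PBS (log2 1.62 ± 0.38, adjusted p = 0.293). Slc7a11, the cystine importer xCT that exports glutamate in exchange, stood at 407 and 383 CPM in 5xFAD_Ab3FTnAu, 946 and 689 CPM in 5xFAD_PBS, and 409 and 395 CPM in WT_PBS (log2 1.02 ± 0.24, adjusted p = 0.293). The treated samples of Slc7a11 were at the WT_PBS level (log2 -1.11 ± 0.26, adjusted p = 0.367 against 5xFAD_PBS). Plce1, a phospholipase C gene, stood at 157 and 162 CPM in 5xFAD_Ab3FTnAu, 282 and 459.6 CPM in 5xFAD_PBS, and 119 and 135 CPM in WT_PBS (log2 1.55 ± 0.31, adjusted p = 0.293). Dpp10, which encodes a partner of Kv4 potassium channels, stood at 64.7 and 88.4 CPM in 5xFAD_Ab3FTnAu, 252 and 155 CPM in 5xFAD_PBS, and 78.7 and 62.7 CPM in WT_PBS (log2 1.48 ± 0.32, adjusted p = 0.293). In 5xFAD_Ab3FTnAu, the levels rest on 2 and 6 UMIs for Igfbp5 and on 7 and 6 for Dpp10. For Igfbp5, Slc7a11, Plce1 and Dpp10, both 5xFAD_PBS samples lay above the other 4. Under the stricter astrocyte rule this order did not hold for Dpp10. It then had 47 and 1 UMIs in 5xFAD_PBS, or 380 and 11.1 CPM. The levels were 102 and 0 CPM in 5xFAD_Ab3FTnAu and 50.6 and 44.9 CPM in WT_PBS. In neuron barcodes Dpp10 stood at 784 to 1490 CPM.

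Other genes named for small p in this comparison included Angpt1, an angiopoietin gene, at 166 and 265 CPM in 5xFAD_Ab3FTnAu, 312 and 291 CPM in 5xFAD_PBS, and 130.3 and 72.3 CPM in WT_PBS (log2 1.46 ± 0.32, adjusted p = 0.293). Ldlrad4, an inhibitor of TGF-β signalling, stood at 176 and 177 CPM in 5xFAD_Ab3FTnAu, 186 and 128 CPM in 5xFAD_PBS, and 54.2 and 62.7 CPM in WT_PBS (log2 1.47 ± 0.32, adjusted p = 0.293), so the 2 5×FAD groups overlapped and both WT_PBS samples were lower. Fjx1, a secreted kinase-like protein gene, ran the other way, at 64.7 and 44.2 CPM in 5xFAD_Ab3FTnAu, 40.2 and 74.4 CPM in 5xFAD_PBS, and 261 and 164 CPM in WT_PBS (log2 -1.99 ± 0.40, adjusted p = 0.293). Thy1, whose promoter drives the 5×FAD transgenes, stood at 46.2 and 44.2 CPM in 5xFAD_Ab3FTnAu, 126 and 155 CPM in 5xFAD_PBS, and 49.1 and 28.9 CPM in WT_PBS (log2 1.67 ± 0.37, adjusted p = 0.293). Its astrocyte levels in 5xFAD_Ab3FTnAu rest on 5 and 3 UMIs. Neuron barcodes had 93.0 and 97.4 CPM in 5xFAD_Ab3FTnAu, 179 and 212 CPM in 5xFAD_PBS, and 66.1 and 27.5 CPM in WT_PBS. Oligodendrocyte barcodes had 121 and 129 CPM in 5xFAD_Ab3FTnAu, 144 and 107 CPM in 5xFAD_PBS, and 69.6 and 39.9 CPM in WT_PBS. Microglia barcodes had 170 and 146 CPM in 5xFAD_Ab3FTnAu, 177 and 128 CPM in 5xFAD_PBS, and 63.5 and 48.2 CPM in WT_PBS. In each of these other classes, both 5xFAD_Ab3FTnAu samples thus lay above both WT_PBS samples. For 5xFAD_PBS against WT_PBS, the astrocyte difference minus the oligodendrocyte one did not pass (log2 0.46 ± 0.41, adjusted p = 0.981). The noncoding RNA 2610307P16Rik had 6 and 1 UMIs in 5xFAD_Ab3FTnAu, 18 and 10 UMIs in 5xFAD_PBS, and 9 and 1 UMIs in WT_PBS (log2 3.43 ± 0.73, adjusted p = 0.293), and Mro had 55.5 and 58.9 CPM in 5xFAD_Ab3FTnAu, 35.2 and 40.6 CPM in 5xFAD_PBS, and 143 and 111 CPM in WT_PBS (log2 -1.80 ± 0.38, adjusted p = 0.293).

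The reactive astrocyte list held 31 genes, of which 4 passed the filter on low counts. These 4, Gfap, Cp, Ggta1 and Osmr, were higher in both 5xFAD_PBS samples than in both WT_PBS samples (median log2 2.41, against 0.01 over all tested genes, of which 18.4% were higher without overlap), and none passed. Osmr, the oncostatin M receptor gene, had 3 and 0 UMIs in 5xFAD_Ab3FTnAu, 12 and 21 UMIs in 5xFAD_PBS, and 24 and 2 UMIs in WT_PBS (log2 2.46 ± 0.68, adjusted p = 0.366). Cp, encoding the copper enzyme ceruloplasmin, had 7 and 1 UMIs in 5xFAD_Ab3FTnAu, 13 and 15 UMIs in 5xFAD_PBS, and 16 and 0 UMIs in WT_PBS (log2 2.93 ± 0.78, adjusted p = 0.354). Serpina3n, a secreted protease inhibitor of reactive glia, had 0 and 0 UMIs in 5xFAD_Ab3FTnAu, 4 and 6 UMIs in 5xFAD_PBS, and 7 and 1 UMIs in WT_PBS and was too low to test, as was Vim, the vimentin gene, with 1 and 1 UMIs in 5xFAD_Ab3FTnAu, 2 and 0 UMIs in 5xFAD_PBS, and 6 and 3 UMIs in WT_PBS. Summed over the whole list, the level was 472 and 575 CPM in 5xFAD_Ab3FTnAu, 644 and 973 CPM in 5xFAD_PBS, and 245 and 318 CPM in WT_PBS, so every 5×FAD sample was above both WT_PBS samples. The median was -1.03 in 5xFAD_Ab3FTnAu against 5xFAD_PBS and 1.24 against WT_PBS. The filter passes genes through the group where they are high, so these counts describe the genes that passed and not all 31.

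A gene may stand in several lists: Gfap, Osmr and Ggta1 are also in the plaque-associated list, which had 17 of 23 genes tested and to which C4b, Igfbp5, Clu and Cst3 belong too. In 5xFAD_Ab3FTnAu against 5xFAD_PBS, 16 of the 17 had a log2 fold change below 0 (50.6% of all tested genes), 7 of them at an unadjusted p under 0.05 (4.02% of all), and Apoe alone passed (median -0.97). In 5xFAD_Ab3FTnAu against WT_PBS, 13 were below 0, 7 at an unadjusted p under 0.05 (6.5% of all), and again Apoe alone passed (median -0.76). In 5xFAD_PBS against WT_PBS, 10 were above 0 and 7 below (median 0.08), of which 5 were higher and 1 lower at an unadjusted p under 0.05 (4.48% and 3.49% of all), and 6 were higher and 1 lower without overlap (18.4% and 18.3% of all). Ctsd, the lysosomal protease cathepsin D gene, had 37.0 and 73.7 CPM in 5xFAD_Ab3FTnAu, 106 and 128 CPM in 5xFAD_PBS, and 107 and 43.4 CPM in WT_PBS. Id3, a BMP target gene, had 55.5 and 206 CPM in 5xFAD_Ab3FTnAu, 126 and 67.6 CPM in 5xFAD_PBS, and 166 and 188 CPM in WT_PBS. Neither separated the groups in every comparison. The list's sum was 4116 and 4964 CPM in 5xFAD_Ab3FTnAu, 9408 and 17304 CPM in 5xFAD_PBS, and 18006 and 9785 CPM in WT_PBS, so both treated samples were below the other 4.

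Genes of general astrocyte identity that the rule did not use were below 0 in more cases than above it in each comparison. Of 38 listed, 37 were tested, and 27 were below 0 in 5xFAD_Ab3FTnAu against 5xFAD_PBS, 31 in 5xFAD_Ab3FTnAu against WT_PBS and 28 in 5xFAD_PBS against WT_PBS (medians -0.31, -0.57 and -0.31, against 50.6%, 50.6% and 49.5% of all tested genes below 0). Apoe was the only one called, in the first 2 of these. Without overlap between samples, 19, 23 and 9 were lower in these comparisons, against 17.7%, 19.9% and 18.3% of all tested genes, and 2, 5 and 5 were higher, against 21.4%, 25.2% and 18.4%. The list's sum was 31957 and 30347 CPM in 5xFAD_Ab3FTnAu, 32318 and 46003 CPM in 5xFAD_PBS, and 49932 and 38647 CPM in WT_PBS, with 5xFAD_PBS and WT_PBS overlapping. Mlc1, a membrane protein of astrocyte end-feet, had 27.7 and 88.4 CPM in 5xFAD_Ab3FTnAu, 121 and 257 CPM in 5xFAD_PBS, and 189.6 and 116 CPM in WT_PBS (log2 -1.88 ± 0.61, adjusted p = 0.654 against 5xFAD_PBS). Mfge8, a secreted bridge for phagocytosis, had 74.0 and 58.9 CPM in 5xFAD_Ab3FTnAu, 116 and 162 CPM in 5xFAD_PBS, and 418 and 154 CPM in WT_PBS (log2 -2.21 ± 0.54, adjusted p = 0.118 against WT_PBS).

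**Figure D5:**
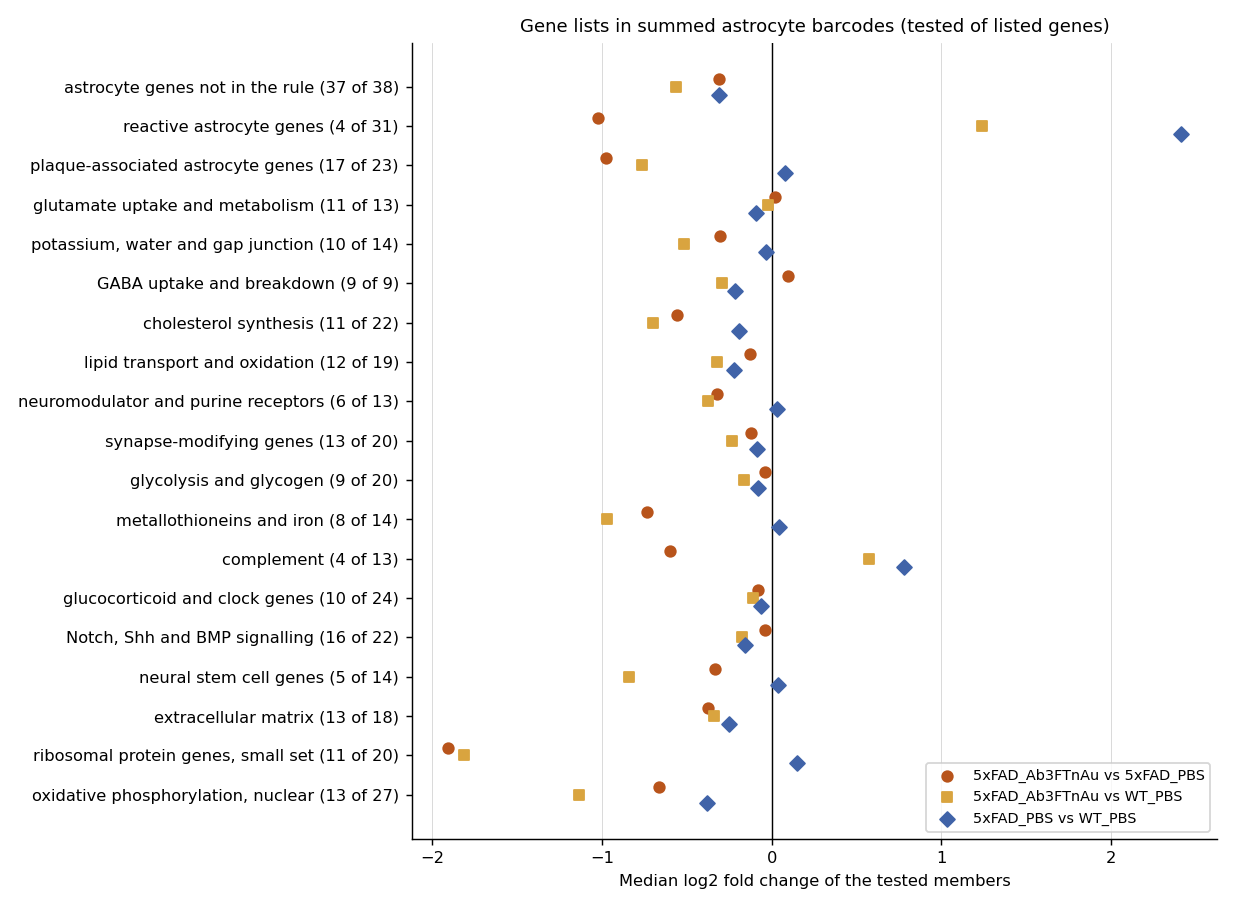
Median log2 fold change of the tested members of each gene list with at least 4 tested genes, for 5xFAD_Ab3FTnAu against 5xFAD_PBS (circles), 5xFAD_Ab3FTnAu against WT_PBS (squares) and 5xFAD_PBS against WT_PBS (diamonds). Glutamate genes lie within 0.1 of 0, and ribosomal protein genes lie near -1.91 and -1.81 in the 2 comparisons of the treated samples.

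Genes of glutamate uptake and metabolism had medians near 0 in each comparison. Of 13 listed, 11 were tested, with medians of 0.02, -0.02 and -0.09 in 5xFAD_Ab3FTnAu against 5xFAD_PBS, 5xFAD_Ab3FTnAu against WT_PBS and 5xFAD_PBS against WT_PBS, and none passed. Slc1a2 differed by 0.02 ± 0.21, -0.02 ± 0.21 and -0.04 ± 0.21 on the log2 scale in the same order. Glul, encoding the glutamine synthetase that recycles glutamate, had 398 and 221 CPM in 5xFAD_Ab3FTnAu, 297 and 392 CPM in 5xFAD_PBS, and 338 and 409.7 CPM in WT_PBS. Slc7a10, a serine transporter gene, had 185 and 88.4 CPM in 5xFAD_Ab3FTnAu, 136 and 223 CPM in 5xFAD_PBS, and 419.8 and 198 CPM in WT_PBS (log2 -1.22 ± 0.46, adjusted p = 0.280 against WT_PBS).

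Genes for potassium, water and gap junctions (10 of 14 tested) had medians of -0.30, -0.52 and -0.03 in the same 3 comparisons, with no call. Kcnj10, the inward rectifier channel Kir4.1, had 7 and 0 UMIs in 5xFAD_Ab3FTnAu, 15 and 12 UMIs in 5xFAD_PBS, and 64 and 12 UMIs in WT_PBS, too few for a fine comparison. Dtna, a dystrobrevin of the end-foot complex, had 1822 and 1709 CPM in 5xFAD_Ab3FTnAu, 1459 and 1757 CPM in 5xFAD_PBS, and 1672 and 1562 CPM in WT_PBS. For GABA uptake and breakdown (9 of 9 tested), the medians were 0.10, -0.29 and -0.21, also with no call. Gabrb1, a GABA receptor subunit gene, had 3228 and 3757 CPM in 5xFAD_Ab3FTnAu, 3064 and 3163 CPM in 5xFAD_PBS, and 3319 and 2916 CPM in WT_PBS.

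Among lipid genes, none but Apoe passed. Of 22 cholesterol synthesis genes, 11 were tested, with medians of -0.56, -0.70 and -0.19. Msmo1, a sterol oxidase, had 157 and 133 CPM in 5xFAD_Ab3FTnAu, 181 and 237 CPM in 5xFAD_PBS, and 506 and 246 CPM in WT_PBS (log2 -1.47 ± 0.40, adjusted p = 0.144 against WT_PBS). Hmgcs1, an early enzyme of the pathway, had 64.7 and 88.4 CPM in 5xFAD_Ab3FTnAu, 111 and 108 CPM in 5xFAD_PBS, and 105 and 159 CPM in WT_PBS. Of 19 lipid transport and oxidation genes, 12 were tested, with medians of -0.13, -0.32 and -0.22 and Apoe as the call already given. Fabp5, a fatty acid binding protein gene, had 4 and 0 UMIs in 5xFAD_Ab3FTnAu, 6 and 4 UMIs in 5xFAD_PBS, and 118 and 19 UMIs in WT_PBS (log2 -2.15 ± 0.69, adjusted p = 0.203 against WT_PBS). In glycolysis and glycogen metabolism, 9 of 20 genes were tested (medians -0.04, -0.17 and -0.08), and Aldoc, the aldolase of astrocytes, had 139 and 88.4 CPM in 5xFAD_Ab3FTnAu, 60.4 and 135 CPM in 5xFAD_PBS, and 163 and 159 CPM in WT_PBS.

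No gene of the signalling, synapse and matrix lists passed in any of the 3 comparisons. For neuromodulator and purine receptors (6 of 13 tested) the medians were -0.32, -0.37 and 0.03, and Adcyap1r1, the receptor of the peptide PACAP, had 27.7 and 29.5 CPM in 5xFAD_Ab3FTnAu (3 and 2 UMIs), 80.5 and 101 CPM in 5xFAD_PBS, and 82.1 and 96.4 CPM in WT_PBS (log2 -1.66 ± 0.53, adjusted p = 0.208 against WT_PBS). For synapse-modifying genes (13 of 20 tested) they were -0.12, -0.23 and -0.09. Ptn, the growth factor pleiotrophin, had 832 and 751 CPM in 5xFAD_Ab3FTnAu, 1333 and 1149 CPM in 5xFAD_PBS, and 1692 and 1234 CPM in WT_PBS (log2 -0.95 ± 0.25, adjusted p = 0.137 against WT_PBS), and Mertk, a receptor for phagocytosis of synapses, had 657 and 1016 CPM in 5xFAD_Ab3FTnAu, 538 and 547 CPM in 5xFAD_PBS, and 747 and 771 CPM in WT_PBS. For Notch, Shh and BMP signalling (16 of 22 tested) they were -0.04, -0.17 and -0.16, with Hes5 described above. For neural stem cell genes, some of which astrocytes also express, 5 of 14 were tested (medians -0.33, -0.84 and 0.04). For extracellular matrix genes, 13 of 18 were tested (medians -0.37, -0.34 and -0.25), including Ncan, the neurocan gene, at 55.5 and 58.9 CPM in 5xFAD_Ab3FTnAu, 75.5 and 122 CPM in 5xFAD_PBS, and 141 and 164 CPM in WT_PBS. For glucocorticoid and clock genes, 10 of 24 were tested (medians -0.08, -0.11 and -0.06), and Per3 had 139 and 103 CPM in 5xFAD_Ab3FTnAu, 201 and 196 CPM in 5xFAD_PBS, and 245 and 174 CPM in WT_PBS.

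Stress and immune genes were mostly below the filter. No interferon response gene of 18 was tested, 1 of 12 MHC class I genes (H2-K1) and 1 of 18 immediate early and heat shock genes (Hspa8, at 102 and 73.7 CPM in 5xFAD_Ab3FTnAu, 45.3 and 74.4 CPM in 5xFAD_PBS, and 80.4 and 62.7 CPM in WT_PBS). H2-K1 had 55.5 and 58.9 CPM in 5xFAD_Ab3FTnAu, 40.2 and 54.1 CPM in 5xFAD_PBS, and 123 and 43.4 CPM in WT_PBS. B2m, the common light chain of MHC class I, had 2 and 3 UMIs in 5xFAD_Ab3FTnAu, 8 and 4 UMIs in 5xFAD_PBS, and 43 and 5 UMIs in WT_PBS, which did not reach the filter. Of 13 complement genes, 4 were tested, C4b, Csmd1 and the C1q genes C1qa and C1qc, with medians of -0.60, 0.58 and 0.78. C1qa, which is among the microglia markers, had 37.0 and 118 CPM in 5xFAD_Ab3FTnAu, 95.6 and 128 CPM in 5xFAD_PBS, and 55.0 and 43.4 CPM in WT_PBS. The part of microglia RNA in these values was not tested. Of 14 metallothionein and iron genes, 8 were tested (medians -0.74, -0.97 and 0.04), including Mt1 at 139 and 29.5 CPM in 5xFAD_Ab3FTnAu, 161 and 135 CPM in 5xFAD_PBS, and 141 and 198 CPM in WT_PBS and Mt3, the brain metallothionein, at 83.2 and 14.7 CPM in 5xFAD_Ab3FTnAu, 50.3 and 122 CPM in 5xFAD_PBS, and 183 and 106 CPM in WT_PBS.

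Short transcripts of ribosomes and mitochondria were low in the treated samples. Of 20 ribosomal protein genes, 11 were tested, of which 10 were below 0 in 5xFAD_Ab3FTnAu against 5xFAD_PBS and 10 against WT_PBS (medians -1.91 and -1.81), 5 in each at an unadjusted p under 0.05, and none passed (of all tested genes, 50.6% were below 0 in both and 4.02% and 6.5% were lower at that p). Rplp1, a protein of the ribosomal stalk, had 2 and 1 UMIs in 5xFAD_Ab3FTnAu, 23 and 23 UMIs in 5xFAD_PBS, and 96 and 40 UMIs in WT_PBS, and did not pass. The median was 0.15 in 5xFAD_PBS against WT_PBS. Of 27 nuclear genes of oxidative phosphorylation, 13 were tested (medians -0.66, -1.14 and -0.38), including Ndufa4 at 55.5 and 14.7 CPM in 5xFAD_Ab3FTnAu, 111 and 142 CPM in 5xFAD_PBS, and 157 and 116 CPM in WT_PBS. All 11 tested mitochondrial transcripts were below 0 in both comparisons of the treated samples (medians -4.37 and -2.33) and above 0 in 5xFAD_PBS against WT_PBS (median 1.83). Of these, mt-Cytb, a subunit of respiratory complex III, had 27.7 and 58.9 CPM in 5xFAD_Ab3FTnAu, 926 and 1501 CPM in 5xFAD_PBS, and 65.2 and 723 CPM in WT_PBS, so the first WT_PBS sample stood with 5xFAD_Ab3FTnAu. Fth1 was also low in that sample, and its Apoe and Cst3 levels were among the highest. Beyond the values given for barcodes without a mitochondrial UMI, the part of this feature in the ribosomal, Fth1, Apoe and Cst3 differences was not tested.

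Gene length and class moved with the groups across the whole table. Among protein-coding genes, the 962 shortest (up to 32.726 kb) had medians of -0.18, -0.37 and -0.22 in 5xFAD_Ab3FTnAu against 5xFAD_PBS, 5xFAD_Ab3FTnAu against WT_PBS and 5xFAD_PBS against WT_PBS. The 965 longest (above 146.439 kb) had medians of -0.02, 0.12 and 0.17. Long noncoding RNAs (286 tested) were above 0 in 196, 213 and 212 cases (medians 0.30, 0.64 and 0.32), while 49.4%, 49.4% and 50.5% of all tested genes were. At an unadjusted p under 0.05, 26, 98 and 36 were higher, against 2.58%, 6.35% and 4.48% of all tested genes, and 3, 5 and 5 were lower, against 4.02%, 6.5% and 3.49%. C730002L08Rik, Gm34408, Sorbs2os and 2610307P16Rik belong to this class.

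The differences were set against those in oligodendrocyte barcodes of the same libraries, in 1 fit with both classes. In 5xFAD_Ab3FTnAu against 5xFAD_PBS, 6 of 12199 genes differed between the classes (0.0492%), 2 with the higher difference in astrocytes (0.0164%) and 4 with the lower (0.0328%). Fth1 differed by -2.94 ± 0.56 on the log2 scale in astrocytes and by -0.54 ± 0.21 in oligodendrocytes, where it stood at 365 and 453 CPM in 5xFAD_Ab3FTnAu, 449 and 704 CPM in 5xFAD_PBS, and 582 and 758 CPM in WT_PBS (log2 -2.44 ± 0.40, adjusted p = 1.81e-05 for astrocytes minus oligodendrocytes). Under the stricter astrocyte rule its astrocyte levels were 68.0 and 108 CPM in 5xFAD_Ab3FTnAu, on 2 and 2 UMIs. They were 267 and 431 CPM in 5xFAD_PBS and 244 and 554 CPM in WT_PBS. The SE in this fit leans on spread pooled over genes. For Fth1 it was 0.40 for the difference and 0.56 for the astrocyte change alone. The p-values of this fit may therefore understate the spread between a gene's own samples. C730002L08Rik also differed more in astrocytes (log2 2.01 ± 0.44, adjusted p = 0.0159), at 189.6 and 171 CPM in 5xFAD_Ab3FTnAu, 112 and 107 CPM in 5xFAD_PBS, and 48.5 and 117 CPM in WT_PBS in oligodendrocyte barcodes. In 5xFAD_PBS against WT_PBS, 7 genes differed, 5 with the higher difference in astrocytes (0.041%) and 2 with the lower (0.0164%), including C4b above.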

How the data were processed

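The hippocampal libraries were made with 10x Chromium 3′ v3.1 chemistry from single-cell suspensions, per the labels. The authors deposited UMI counts per gene and barcode, unnormalized, from Cell Ranger 7.1.0 per the file headers, on mm10, with Seurat 4.3.0.1 named in the submitters' processing notes. No source used here says whether intronic reads or strand entered the counting. Barcodes were filtered and called as the report states, without a doublet caller. The members and gene lists were chosen with earlier results of these data known. Counts were summed per sample and tested in R 4.3.3 with edgeR 4.0.16 (TMM factors, filterByExpr, quasi-likelihood F test, Benjamini-Hochberg adjustment over all tested genes, adjusted p under 0.05). All 3 groups shared 1 estimate of spread. The 10 genes of the rule were not tested, and ± after a log2 value is its SE. A second fit held astrocyte and oligodendrocyte sums with the sample as a block. Named genes were the 8 largest calls each way, the 8 smallest p where fewer passed, leading members of each list and a few standard markers. The fit was checked on simulated data. Alternatives were DESeq2 1.42.0, upper-quartile factors, no filter on low counts, a stricter barcode filter (500 genes, 1000 UMIs), a stricter astrocyte rule, barcodes without neuron or mitochondrial UMIs, mixtures left out, thinned sums, a replicate block and leaving out each sample. Gene positions are from GENCODE vM21 (GRCm38). Some items are not reported here.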

Additional observations from a re-analysis of the deposited data

Results flagged for a closer look

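The results here had a difference between samples of 2 groups that itself differed between astrocyte and oligodendrocyte barcodes of the same libraries, by the interaction term of edgeR's quasi-likelihood test over 12199 genes. Each value is the log2 difference in astrocytes minus that in oligodendrocytes, and no explanation was tested. The test leans on spread pooled over genes and may understate the spread between a gene's own samples. In 5xFAD_Ab3FTnAu against 5xFAD_PBS it was -2.44 for Fth1, the ferritin heavy chain gene described in the report. It was 2.01 for C730002L08Rik. For Plce1 it was -3.22 ± 0.74, with 9 and 7 UMIs in 5xFAD_Ab3FTnAu, 4 and 3 UMIs in 5xFAD_PBS, and 10 and 6 UMIs in WT_PBS in oligodendrocyte barcodes.

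Pcdh17, a protocadherin gene, had -1.81 ± 0.40 in the same comparison. It stood at 139 and 221 CPM in 5xFAD_Ab3FTnAu, 186 and 284 CPM in 5xFAD_PBS, and 251 and 164 CPM in WT_PBS in astrocyte barcodes and 608 and 213 CPM in 5xFAD_Ab3FTnAu, 166 and 162 CPM in 5xFAD_PBS, and 175 and 162 CPM in WT_PBS in oligodendrocyte barcodes, so the first 5xFAD_Ab3FTnAu sample was highest in the oligodendrocytes. Dock2, a gene of immune cells, had 3.92 ± 0.83. In astrocyte barcodes it had 6 and 17 UMIs in 5xFAD_Ab3FTnAu, 2 and 2 UMIs in 5xFAD_PBS, and 4 and 1 UMIs in WT_PBS, while in microglia barcodes it stood at 561 to 895 CPM, and the microglia markers of the second 5xFAD_Ab3FTnAu sample were the highest of the 6 as well.

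Pdzrn3, a ubiquitin ligase gene, was called in both comparisons, with -3.57 ± 0.62 in 5xFAD_Ab3FTnAu against 5xFAD_PBS and 3.33 ± 0.56 in 5xFAD_PBS against WT_PBS, which share the 5xFAD_PBS samples. In astrocyte barcodes it stood at 129 and 206 CPM in 5xFAD_Ab3FTnAu, 292 and 304 CPM in 5xFAD_PBS, and 129 and 188 CPM in WT_PBS, and in oligodendrocyte barcodes it had 18 and 16 UMIs in 5xFAD_Ab3FTnAu, 3 and 6 UMIs in 5xFAD_PBS, and 42 and 6 UMIs in WT_PBS.

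In 5xFAD_PBS against WT_PBS, C4b had -3.26, as given in the report. Dpp10 had 1.70 ± 0.36, with its order between samples in astrocyte barcodes lost under the stricter astrocyte rule, as given in the report. Sgcd, a sarcoglycan gene, had 1.99 ± 0.38, at 148 and 118 CPM in 5xFAD_Ab3FTnAu, 161 and 338 CPM in 5xFAD_PBS, and 105 and 111 CPM in WT_PBS in astrocyte barcodes. Under the stricter astrocyte rule, Sgcd had 154 and 88.4 CPM in 5xFAD_PBS, on 19 and 8 UMIs. It then had 68.2 and 120 CPM in WT_PBS, so these groups overlapped. In neuron barcodes Sgcd stood at 542 to 699 CPM. Tmtc4 had 2.24 ± 0.50, at 407 and 162 CPM in 5xFAD_Ab3FTnAu, 402 and 101 CPM in 5xFAD_PBS, and 44.9 and 72.3 CPM in WT_PBS, so the first sample of each 5×FAD group was above its second. Adam12, a metalloprotease gene, had 2.36 ± 0.53, at 148 and 29.5 CPM in 5xFAD_Ab3FTnAu, 247 and 20.3 CPM in 5xFAD_PBS, and 18.6 and 38.6 CPM in WT_PBS, with the same split between first and second samples and the second 5xFAD_PBS sample within the WT_PBS range. Under the stricter astrocyte rule, Adam12 had only 8 and 0 UMIs in 5xFAD_PBS and 0 and 6 in WT_PBS. Zfyve26 had -3.59 ± 0.81, with 3 and 4 UMIs in 5xFAD_Ab3FTnAu, 0 and 2 UMIs in 5xFAD_PBS, and 60 and 13 UMIs in WT_PBS in astrocyte barcodes.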

How the results depend on the processing

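The counts of called genes rest on few samples and few barcodes. In 5xFAD_Ab3FTnAu against 5xFAD_PBS (1 gene), DESeq2 called 3, no filter on low counts 27 and barcodes without a mitochondrial UMI 0; leaving out a sample gave 0 to 24, namely 0 without 5xFAD_Ab3FTnAu replicate 1, 24 without WT_PBS replicate 1 and 18 without WT_PBS replicate 2. In 5xFAD_Ab3FTnAu against WT_PBS (2 genes), DESeq2 called 16, no filter 172, the stricter astrocyte rule 1, barcodes without a neuron UMI 21 and those without a mitochondrial UMI 13. Leaving out a sample gave 0 to 178 there: 6 and 0 without 5xFAD_Ab3FTnAu replicates 1 and 2, 5 and 44 without those of 5xFAD_PBS, and 19 and 178 without those of WT_PBS. In 5xFAD_PBS against WT_PBS (0 genes), no filter gave 79 and barcodes without a mitochondrial UMI 1; leaving out a sample gave 0 to 105, namely 2 and 5 without 5xFAD_PBS replicates 1 and 2 and 105 without WT_PBS replicate 2. For astrocytes minus oligodendrocytes, the 7 genes of 5xFAD_PBS against WT_PBS became 3 under the stricter rule and 12 without mixtures, and 1 to 30 with a sample left out: 16 and 11 without 5xFAD_Ab3FTnAu replicates 1 and 2, 30 and 12 without those of 5xFAD_PBS, and 1 without WT_PBS replicate 1. The 6 genes of 5xFAD_Ab3FTnAu against 5xFAD_PBS became 14 under the stricter rule and 3 to 11 with a sample left out, 3 without 5xFAD_Ab3FTnAu replicate 2 and 11 without 5xFAD_PBS replicate 1. A lone sample of a group was assumed to vary like the other groups. The causes were not tested. Deviations of samples with the same replicate number were almost uncorrelated over 4164 genes. The correlations were 0.0319 for the 2 5×FAD groups, -0.0475 for 5xFAD_Ab3FTnAu and WT_PBS, and -0.0458 for 5xFAD_PBS and WT_PBS. At these depths counting noise also brings such values near 0, so they cannot show whether the numbers pair the samples. With the replicate block, 10 genes were called in 5xFAD_Ab3FTnAu against 5xFAD_PBS. It gave 15 in 5xFAD_Ab3FTnAu against WT_PBS and 1 in 5xFAD_PBS against WT_PBS. Under the stricter rule the mean astrocyte share was 0.161% for 5xFAD_Ab3FTnAu (0.749% under the main rule), 0.714% for 5xFAD_PBS (1.27%) and 1.98% for WT_PBS (3.25%), so the share in 5xFAD_Ab3FTnAu shrank the most. No named gene that passed changed direction under an alternative. Apoe passed in 14 of 16 alternatives against 5xFAD_PBS (log2 -3.22 to -1.99, adjusted p up to 0.553) and in 15 of 16 against WT_PBS (log2 -3.08 to -2.29, adjusted p up to 0.0536), and C730002L08Rik in 12 of 16 against WT_PBS (log2 2.33 to 3.47). Upper-quartile factors moved the median of all tested genes to at most -0.09 on the log2 scale. Depth limits what could be seen: the smallest astrocyte sum held 67882 UMIs.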

Other observations

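Wdr17, a gene singled out after its values were seen, was high in astrocyte barcodes and ordered by group. It stood at 9703 and 9693 CPM in 5xFAD_Ab3FTnAu, 5966 and 6428 CPM in 5xFAD_PBS, and 3621 and 5644 CPM in WT_PBS, and the difference of 5xFAD_Ab3FTnAu against WT_PBS did not pass (adjusted p = 0.103). In neuron barcodes it stood at 172 to 204 CPM and in oligodendrocyte barcodes at 29.6 to 108 CPM.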
